A study of Mesocricetus auratus with 6 samples.

Results

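The respiratory chain subunits described here are the nuclear genes whose symbols name a subunit of complexes I to V of the mitochondrial inner membrane. They were chosen by symbol alone, as those beginning with Nduf followed by a, b, c, s or v and a number, with Uqcr, Cox4 to Cox8 or Atp5, or equal to *Sdha*, *Sdhb*, *Sdhc* or *Sdhd*. The rule found 60 of the 31593 genes in the deposited tables. Of these, 38 are Nduf genes, 4 are Sdh genes and 18 are Atp5 genes, while 0 rows used here had a symbol of the Uqcr or of the Cox4 to Cox8 series. Complexes III and IV and the subunits encoded by mitochondrial DNA were therefore not analysed here, apart from *Ndufa4*, once counted in complex I and now assigned to complex IV, and its paralogue *Ndufa4l2*. The other members were 36 of complex I, made up of 7 core and 29 accessory subunits, 4 of complex II and 18 of complex V, counting its inhibitor *Atp5if1*.

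RNA-seq was made from cortex, from the suprachiasmatic nucleus (SCN, the hypothalamic pacemaker of circadian rhythms) and from liver of Syrian hamsters collected at circadian time (CT) 15. *duper* hamsters carry a null mutation of the clock repressor gene *Cry1* and descend from crosses to the Lakeview (LVG) ecotype, to which the wild-type hamsters belong. The *duper* hamsters were all female and the wild-type hamsters were of both sexes, so that sex and genotype cannot be told apart. Cortex and SCN of 4 hamsters of a genotype were pooled into 1 library, and the reads of 4 liver libraries of a genotype stand in 1 deposited set, giving 6 sets of values (called libraries below) and no replicate of a genotype within a tissue. Total estimated counts ranged from 6788947 to 85748562 per library, and the 10 most abundant genes took 2.91% to 24.9% of them, with the liver at the upper end of both. *Cry1* was lower in every *duper* library: it stood at 33.3, 22.9 and 16.8 TPM (a level scaled for transcript length and library total) in wild-type cortex, SCN and liver, and at 8.56, 8.14 and 5.44 TPM in the *duper* tissues. Marker lists of hepatocytes and neurons separated liver from brain. The hepatocyte list (7 of 8 genes in the tables) summed to 133681 to 141164 TPM in liver against 106 to 2555 in the brain libraries. Most of its cortex sum was *Ttr*, at 1837 and 2505 TPM in wild-type and *duper* cortex, a gene also in a choroid plexus list. The neuron list (5 of 5) summed to 2303 to 5616 TPM in brain against 0.892 to 1.37 in liver. An SCN neuron list (5 of 7) was mixed, at 11.0 to 12.1 TPM in cortex, 47.8 to 75.5 in SCN and 125 to 136 in liver. Nearly all of its liver sum was *Rgs16*. *Nms*, *Six6* and *Lhx1* were highest in both SCN libraries, and *Prok2* was not. In bulk tissue, fewer cells of a type and less RNA per cell cannot be told apart.

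Complex I passes electrons from NADH, and complex II from succinate, to ubiquinone, and complexes III and IV carry them on to oxygen. Complexes I, III and IV pump protons as they do so, and complex V, the ATP synthase, lets them flow back through a membrane rotor to drive ATP synthesis in its F1 head. Complex II is also succinate dehydrogenase of the tricarboxylic acid cycle. Neurons depend largely on this chain for ATP, and hepatocytes use it to burn fatty acids and amino acids.

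All 60 genes were detected in every library, with at least 16 estimated counts, and all were among the 19780 genes that passed the filter on low counts. The median member stood at 273 and 282 TPM in wild-type and *duper* cortex, 302 TPM in each SCN library, while the liver libraries had 189 and 169.9 TPM. The median of all genes with at least 1 TPM was 9.63 to 17.0 TPM, and 59 or 60 of the 60 members were above it in each library, with *Ndufa4l2* the exception in 5 libraries. Added up, the members took 2.38% and 2.29% of all TPM in wild-type and *duper* cortex, 2.16% in each SCN library, and 1.55% and 1.38% for liver. The brain libraries thus had the larger share of their transcripts in these genes, and the groups of libraries did not overlap.

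The complexes stood at different levels. The median complex I gene had 211 to 232 TPM in the brain libraries and 151 and 135 TPM in wild-type and *duper* liver. For complex V it was 480.1 to 508 TPM in brain, and 393 and 323 TPM in liver. For complex II it was 299 to 311 TPM in brain, and 347 and 277 TPM in liver, on either side of the brain range. Per library, complex V stood at 2.10 to 2.61 times the median of complex I, with overlapping tissues, whereas complex II stood at 1.32 to 1.42 times that median in brain and at 2.05 to 2.30 times in liver.

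**Figure D1:**
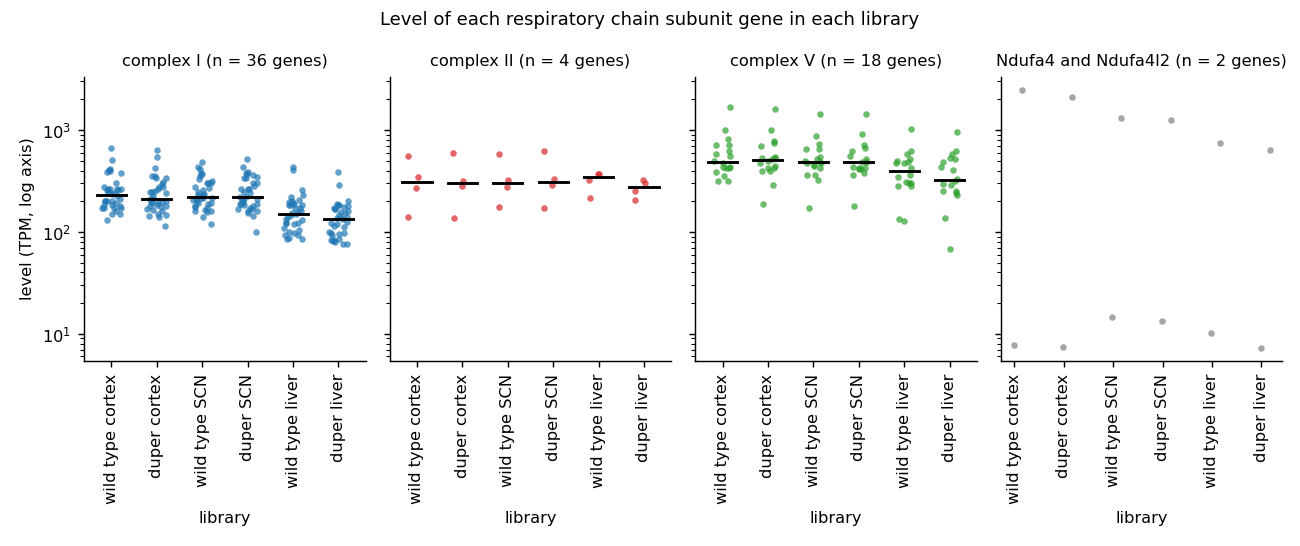
Level of each of the 60 genes in TPM (log axis) in the 6 libraries, by complex, with a black bar at the median of each complex. Complex I and V medians are lower in both liver libraries than in the 4 brain libraries, complex II medians are not, and *Ndufa4* stands at 2469 and 2113 TPM in cortex and 743 and 641 TPM in liver with *Ndufa4l2* at 7.26 to 14.6 TPM throughout.

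Within complex I the accessory subunit *Ndufb9* was the most abundant by its mean over libraries (383 to 673 TPM) and the accessory subunit *Ndufa9* the least (84.9 to 155 TPM). Within complex V the range ran from the catalytic beta subunit *Atp5f1b* (955 to 1668 TPM) to the delta subunit of the head, *Atp5f1d* (134 to 317 TPM), and in complex II from the flavoprotein *Sdha* (252 to 622 TPM) to the membrane anchor *Sdhd* (137 to 214 TPM). *Ndufa4* was above every other member in both cortex libraries, at 2469 and 2113 TPM, while *Ndufa4l2* was the lowest of the 60 in all 6 libraries.

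The first comparison set liver against the brain tissues, and its direction for these genes as a whole rested on how libraries were scaled. In TPM, 45 of 60 members were lower in both liver libraries than in all 4 brain libraries (29 of complex I, 1 of complex II, 14 of complex V, and *Ndufa4*), where 67.7% of all genes tested were. Another 2 members, *Sdhc* and *Sdhd*, were higher in both liver libraries than in all brain libraries, where 14.1% of genes were. limma on log2(TPM + 1) called 36 members lower in liver (64.4% of all genes) and 0 higher (12.9%), with a median member log2 fold change of -0.64 and a median over all genes of -1.21. A call here and below needs a Benjamini-Hochberg adjusted p under 0.05 over all genes tested and an absolute log2 fold change over 0.58. edgeR's quasi-likelihood test with TMM factors, which set the median gene near 0 (0.02), instead called 47 members higher in liver (33.6% of all genes) and 1 lower (32.6%), with a median member log2 fold change of 0.93. The change from TMM to TPM moved the median of all genes by -1.22, and the members' median lay above that of all genes in both, by 0.92 with TMM and 0.56 with TPM. The TMM factors were 0.532 and 0.596 in the liver libraries and 1.25 to 1.42 in brain. The share of the 10 most abundant genes and the marker lists of both organs, given above, move with this contrast, and their part in the level of the whole group was not tested.

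What does not rest on that shift is how the members differed from each other, and this was tested with a scaling that sets their geometric mean count equal in all libraries, chosen after seeing the data. Relative to the members' mean, 8 of the 60 were higher in liver (18.7% of all genes) and 8 were lower (51.2% of all genes, whose median was -0.91 on this scale). The counts stayed at 8 or 9 in each direction under 11 alternatives, those that left out each library in turn included. This scaling centres the members near 0, in the alternatives too. A near balance of the directions is therefore built in and is not a result. Higher were *Sdhb*, *Sdhc* and *Sdhd* of complex II, *Atp5f1e* and *Atp5mc1* of complex V, and *Ndufb11*, *Ndufc1* and *Ndufs6* of complex I. Lower were *Atp5if1*, *Ndufa4* and 6 subunits of complex I, namely *Ndufa5*, *Ndufa8*, *Ndufa11*, *Ndufa13*, *Ndufb5* and *Ndufs3*.

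**Figure D2:**
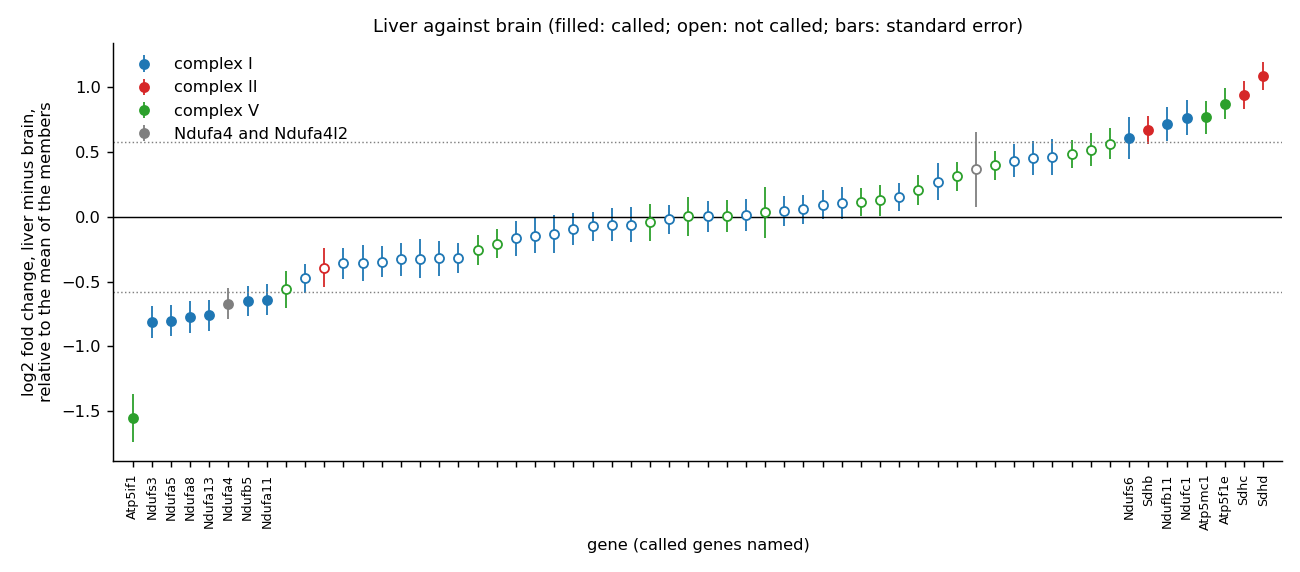
Log2 fold change of each gene, liver minus the mean of cortex and SCN, after scaling to the members' mean (edgeR, 6 libraries), with standard errors; filled points were called and are named on the axis, and dotted lines mark 0.58. The points run from *Atp5if1* at -1.55 to *Sdhd* at 1.09, with 3 of the 4 complex II genes among the 8 highest.

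The genes of complex II moved unequally. Its flavoprotein *Sdha*, which carries the succinate site, stood at 561, 593, 577 and 622 TPM in wild-type cortex, *duper* cortex, wild-type SCN and *duper* SCN, and at 327 and 252 TPM in wild-type and *duper* liver. The membrane anchor *Sdhd*, one of the pair that holds haem and the ubiquinone site, stood at 139, 137, 176 and 171 TPM in the brain libraries in the same order, and at 214 and 207 TPM in liver. *Sdha* was thus lower in both liver libraries than in any brain library, and *Sdhd* higher. The ratio of *Sdhd* to *Sdha*, free of any scaling of libraries, was 0.231 to 0.305 in brain and 0.656 and 0.822 in liver. That of the other anchor, *Sdhc*, to *Sdha* was 0.463 to 0.483 in brain and 1.12 and 1.29 in liver, and that of the iron-sulfur subunit *Sdhb* to *Sdha* was 0.529 to 0.613 in brain and 1.12 and 1.20 in liver. In all 3 ratios liver and brain did not overlap, but the ratios share *Sdha* as denominator and are not independent. *Sdhb* itself stood at 313 to 344 TPM in brain and at 367 and 302 TPM in wild-type and *duper* liver, on either side of the brain range. Of all genes, 67.7% were lower and 14.1% higher in both liver libraries than in all brain libraries. For ratios such a share was not computed, here or below.

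Relative to the members' mean, the log2 fold change in liver was 1.09 for *Sdhd* (SE 0.11, adjusted p = 6.8e-05, edgeR), 0.94 for *Sdhc* (SE 0.11, adjusted p = 1.5e-04) and 0.67 for *Sdhb* (SE 0.11, adjusted p = 0.0010). For *Sdha* it was -0.39 (SE 0.15, adjusted p = 0.045), short of the fold a call needs. *Sdhb*, *Sdhc* and *Sdhd* kept their calls under all 11 alternatives.

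**Figure D3:**
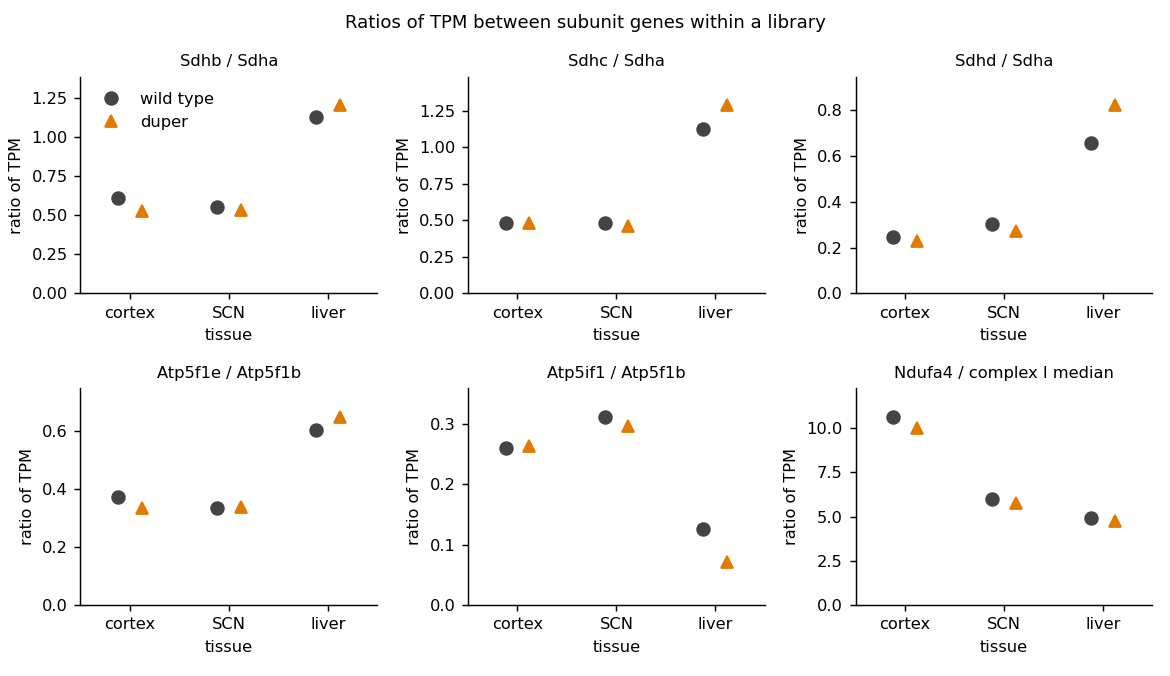
Ratios of TPM between subunit genes within each library (circles wild type, triangles *duper*; 1 library per point, axes from 0). The 3 complex II ratios and *Atp5f1e* to *Atp5f1b* are higher in both liver libraries than in all brain libraries, *Atp5if1* to *Atp5f1b* is lower in liver, and *Ndufa4* over the complex I median steps down from cortex to SCN to liver.

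Among the 7 core subunits of complex I, which hold its flavin and iron-sulfur clusters, 1 was called relative to the members' mean. *Ndufs3* stood at 257, 247, 228 and 201 TPM in wild-type and *duper* cortex and wild-type and *duper* SCN, and at 87.1 and 82.6 TPM in liver. Its log2 fold change was -0.81 (SE 0.13, adjusted p = 7.4e-04, edgeR). None of the others was past the fold of a call, with values of -0.35 for *Ndufs1*, -0.32 for *Ndufs7*, -0.32 for *Ndufv1*, 0.04 for *Ndufv2* and 0.44 for *Ndufs8* among them. Of the NADH-oxidizing module, *Ndufs1* and *Ndufv1* lay below the members' mean and *Ndufv2* near it.

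Of the 29 accessory subunits, 3 were called higher and 5 lower, and their values ran from -0.80 to 0.77. *Ndufa5*, an accessory subunit of the matrix arm, stood at 393, 354, 355 and 339 TPM in the brain libraries and 145 and 119 TPM in liver (log2 fold change -0.80, SE 0.12, adjusted p = 6.4e-04, edgeR). *Ndufa8*, of the membrane arm, stood at 300.3, 292, 305 and 366 TPM in brain and 124 and 112 TPM in liver (-0.77). *Ndufa13*, also known as a cell death regulator, stood at 245, 211, 244 and 248 TPM in brain and 99.8 and 79.9 TPM in liver (-0.76). In each of these 3 genes both liver libraries lay far below all brain libraries.

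The 3 called higher did not separate the tissues in TPM. *Ndufc1* stood at 170.4, 178, 214 and 187 TPM in brain and 231 and 179 TPM in liver (log2 fold change relative to the members 0.77, SE 0.13, adjusted p = 0.0014, edgeR). *Ndufb11* stood at 129.7, 163, 193 and 184 TPM in brain and 184 and 167 TPM in liver (0.72). *Ndufs6* stood at 199.7, 184, 228 and 159.7 TPM in brain and 191 and 183 TPM in liver (0.61). Their liver values lay within or near the brain range, and the *Ndufs6* call was lost without the *duper* SCN library (0.48) or the *duper* liver library (0.39). *Ndufa11* (-0.64) and *Ndufb5* (-0.65) were called lower, the latter not without the wild-type liver library (-0.57).

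In complex V, the inhibitor had the largest value of all 60 genes. *Atp5if1* encodes a small protein that binds the F1 head and blocks ATP hydrolysis when the proton gradient fails. It stood at 436, 424, 454 and 428 TPM in wild-type and *duper* cortex and wild-type and *duper* SCN, and at 128 and 68.4 TPM in wild-type and *duper* liver. All brain libraries lay close together, and both liver libraries lay far below them. Over *Atp5f1b*, the catalytic subunit it binds, its ratio was 0.261 to 0.312 in brain and 0.126 and 0.0716 in wild-type and *duper* liver. Relative to the members its log2 fold change was -1.55 (SE 0.19, adjusted p = 1.8e-04, edgeR), with a range of -1.91 to -1.23 over the 11 alternatives, and it was the 1 member called lower in liver with TMM factors too (-0.62, SE 0.18, adjusted p = 0.015), a call lost without the *duper* cortex (-0.53), *duper* SCN (-0.56) or *duper* liver library (-0.31).

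The 5 genes of the F1 head did not move alike. Relative to the members, *Atp5f1a* (-0.04), *Atp5f1b* (0.0039) and *Atp5f1d* (0.04) lay at the mean in liver, and *Atp5f1c*, the rotating gamma shaft, at 0.31. *Atp5f1e*, the small epsilon subunit of that shaft, stood at 622, 535, 487 and 485 TPM in the brain libraries and 616 and 619.9 TPM in liver, a log2 fold change of 0.88 (SE 0.12, adjusted p = 4.0e-04, edgeR). Its ratio to *Atp5f1b* was 0.334 to 0.373 in brain and 0.604 and 0.649 in liver, without overlap. The 4 genes of the peripheral stalk had values of -0.21 to 0.49 and the 5 of the membrane part -0.56 to 0.52, with 0 called in either group by edgeR.

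The rotor ring of complex V is built of 1 protein, the c subunit, that 3 genes encode with different leader peptides. *Atp5mc3* gave the largest part of their summed TPM in brain, 47.8% and 46.8% in wild-type and *duper* cortex and 45.9% and 43.8% for SCN, then 39.3% and 36.8% for liver. *Atp5mc1* gave 31.3% and 33.7% in cortex, 31.5% and 29.5% for SCN, then 37.1% and 39.5% for liver. The tissue means were thus 47.3% ± 0.692, 44.9% ± 1.47 and 38.1% ± 1.74 for *Atp5mc3* and 32.5% ± 1.71, 30.5% ± 1.39 and 38.3% ± 1.68 for *Atp5mc1* in cortex, SCN and liver (SD over the 2 genotypes, n = 2). In liver both had nearly equal parts, and for each gene the liver values lay outside the brain range. *Atp5mc2* had 19.4% to 26.7% in all libraries, with overlapping tissues. Relative to the members, the log2 fold change in liver was 0.77 for *Atp5mc1* (SE 0.13, adjusted p = 0.0011, edgeR), 0.57 for *Atp5mc2* and 0.21 for *Atp5mc3*, and the first alone was called.

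*Ndufa4* separated all 3 tissues, and its paralogue *Ndufa4l2* did not. *Ndufa4* stood at 2469 and 2113 TPM in wild-type and *duper* cortex, 1323 and 1268 TPM for SCN, then 743 and 641 TPM for liver, and no 2 tissues overlapped. Over the median of complex I it stood at 10.7 and 10.0 in cortex, 5.97 and 5.76 for SCN, then 4.92 and 4.75 for liver. Relative to the members it was lower in liver than in brain by a log2 fold change of -0.67 (SE 0.12, adjusted p = 0.0016, edgeR). *Ndufa4l2*, a paralogue known as a target of hypoxia-inducible factor, stood at 7.69 and 7.43 TPM in cortex, 14.6 and 13.4 TPM for SCN, then 10.3 and 7.26 TPM for liver, from 16 to 292 estimated counts, with cortex and liver overlapping. It made up 0.311% to 1.36% of the pair's TPM and so was the minor gene in every tissue.

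SCN against cortex, a comparison of 2 brain regions, left the group nearly level. The median member log2 fold change was -0.0017 against 0.03 for all genes, with 0.01 for complex I, 0.05 for complex II and -0.10 for complex V. edgeR called 1 member lower in SCN (6.8% of all genes) and 0 higher (3.77%). An unadjusted p under 0.05 was found for 8 of the 60. The share of all genes under it was not computed, but it holds at least all the genes called. DESeq2 also called 0 higher, and limma on TPM 1. The gene called lower was *Ndufa4*, at -0.82 (SE 0.14, adjusted p = 0.012, edgeR), and it was called with DESeq2, the likelihood ratio test, limma on TPM and library size as well. Leaving out 1 library of cortex or SCN ended the call while the value stayed between -0.89 and -0.75: the adjusted p was then 0.094 without *duper* SCN, 0.12 without *duper* cortex, 0.16 without wild-type SCN and 0.21 without wild-type cortex. The cell type lists moved with this contrast. A cortical excitatory neuron list (5 of 5 genes in the tables) summed to 928 to 1017 TPM in cortex and 16.7 to 21.4 TPM in SCN. The neuron list summed to 5444 to 5616 TPM against 2303 to 2601 TPM, though its member *Stmn2* was higher in SCN. A parvalbumin interneuron list (5 of 5) summed to 606 to 621 TPM against 389 to 429 TPM. Its members *Pvalb*, *Kcnc1* and *Kcnc2* were lower in both SCN libraries, and *Gad1* and *Tac1* were higher. An oligodendrocyte list (2 of 4) summed to 1636 to 2154 TPM against 2677 to 3122 TPM. A choroid plexus and ependyma list (3 of 4) summed to 1850 to 2517 TPM against 32.9 to 175 TPM. Its members *Ttr* and *Kl* were lower in both SCN libraries, and *Foxj1* overlapped. The part of these lists in the *Ndufa4* difference was not tested.

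*Ndufa4l2* went the other way, with a log2 fold change of 0.94 in SCN (SE 0.37, adjusted p = 0.16, edgeR), short of a call with TMM factors and past it with limma on TPM (0.81, SE 0.17, adjusted p = 0.048). Both SCN libraries lay above both cortex libraries. A list of pericyte and vascular smooth muscle markers (8 of 8 genes in the tables, none at 0) summed to 138 and 160.0 TPM in cortex and 158 and 192 TPM in SCN. Its members did not move alike. *Acta2*, *Vtn*, *Notch3* and *Kcnj8* were higher in both SCN libraries than in both cortex libraries, *Rgs5* and *Higd1b* were lower, and *Pdgfrb* and *Abcc9* overlapped. The part of this list in the *Ndufa4l2* difference was not tested. The other members were not called with TMM factors in this contrast, and the widest values among them were -0.50 for *Atp5f1d* and 0.47 for *Ndufb1*.

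To see which of these genes differed in hamsters without CRY1, *duper* was set against wild type over the 3 tissues, with tissue in the model. edgeR called 0 of the 60 members in either direction, where 15 of 19780 genes (0.0758%) were called. At an unadjusted p under 0.05 there were also 0 members with edgeR and 0 with DESeq2, and DESeq2, the likelihood ratio test and limma on TPM called 0 too. limma on TPM had 2 with an unadjusted p under 0.05, *Ndufb7* and *Ndufv3*, at -0.24 and -0.27. The share of all genes under that p was not computed. The members' log2 fold changes ran from -0.29 (*Atp5if1*, SE 0.16) to 0.12 (*Ndufb3*, SE 0.12), and their median was -0.03 against 0.01 for all genes. By complex the median was -0.05 for I, -0.01 for II and -0.01 for V. In a test on simulated counts of these libraries the same contrast found 97 of 99 genes changed 4-fold and 55 of 96 changed 2-fold. Changes of 2-fold or less could therefore be missed. How many changes of these sizes the contrast would find in the real counts was not tested.

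Within a tissue there was 1 library per genotype and no test, and a value is the log2 ratio of TPM + 1, *duper* over wild type. In cortex the median member was at -0.05 (all genes 0.02) and 1 of 60 was past 0.58 in size, where 16% of genes averaging 1 TPM or over were. In SCN the median was -0.0037 (all genes 0.02), and 0 members were past 0.58, where 14.4% of genes were. In liver it was -0.18 (all genes -0.10) and 1 member was past 0.58, where 15.3% of genes were. These shares were not matched for level, and nearly all members stood above the median gene in TPM. They therefore do not show that the members were steadier than other genes of their level. In liver 55 of 60 members had a ratio below 0, among them all 36 of complex I and all 4 of complex II, where 63.8% of all genes did, but with TMM-scaled CPM the liver median was 0.00049, so the direction in liver rested on the scaling. Over all 3 tissues, 23 members were lower in every *duper* library and 0 were higher, where 1766 and 1189 of 12484 genes were. With TMM-scaled CPM, chosen for this count after seeing the data, 11 members were lower and 4 higher (*Atp5f1c*, *Ndufa3*, *Ndufb3* and *Sdhc*), where 1349 and 1668 of all genes were.

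**Figure D4:**
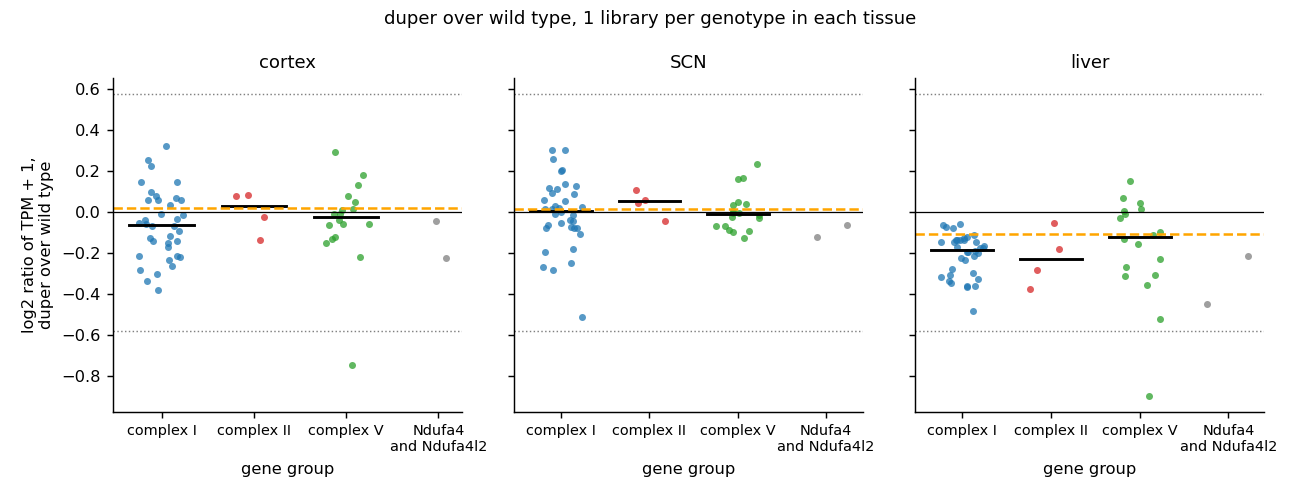
Log2 ratio of TPM + 1, *duper* over wild type, for each gene in each tissue (1 library per genotype), by complex; black bars mark the median of a complex, the dashed orange line the median of all genes, and dotted lines 0.58 in size. In cortex and SCN the points straddle 0, in liver all complex I points lie below it, and *Atp5f1d* in cortex and *Atp5if1* in liver stand below the rest.

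The 2 members past 0.58 belong to complex V. *Atp5f1d* stood at 317 TPM in the wild-type cortex library and 188 TPM in its *duper* counterpart (log2 ratio -0.75, exact 95% interval from counting alone -0.91 to -0.59), while SCN had 173 and 178 TPM, with 134 and 138 TPM for liver. The wild-type cortex library thus stood apart from the other 5. *Atp5if1* stood at 128 TPM in the wild-type liver set and at 68.4 TPM in the *duper* one (-0.90, interval -1.02 to -0.80, and -0.71 with TMM-scaled counts), with 436 and 424 TPM in cortex and 454 and 428 TPM in SCN. With 1 library of each genotype neither difference can be set against the spread between hamsters.

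The other members with the lowest ratios were *Ndufv3* (-0.38) and the core subunit *Ndufs7* (-0.34) in cortex, *Ndufs6* (-0.51), *Ndufa7* (-0.28) and *Ndufb7* (-0.27) in SCN, and *Atp5mk* (-0.52) and *Ndufa1* (-0.48) in liver. The *Ndufv3* ratio in cortex turned to 0.034 with TMM-scaled CPM, which unlike TPM takes no account of transcript length. The TMM factors were 1.25 and 1.26 in wild-type and *duper* cortex. The share of its short transcript in both libraries is given below. The highest were *Ndufb11* (0.32), *Atp5mf* (0.29) and *Ndufa3* (0.25) in cortex, *Ndufb3* (0.30), *Ndufa6* (0.30) and *Ndufa8* (0.26) in SCN, and *Atp5mc1* (0.15), *Atp5mc2* (0.07) and *Atp5f1d* (0.04) in liver. No gene was among the 3 lowest of more than 1 tissue, and *Atp5f1d* was among the lowest in cortex and the highest in liver.

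The deposited transcript tables held 1 transcript for 48 members and 2 or more for 12, of which 6 had at least 2 transcripts at 10% or over of the gene's TPM in a library. *Ndufv3*, an accessory subunit of the NADH-oxidizing module for which short and long forms of the protein are known, had a transcript of 503 bases and one of 1593 bases. The short one made up 76.2% and 58.6% of the gene's TPM in wild-type and *duper* cortex, 56.3% and 64.0% for SCN, then 81.3% and 84.0% for liver. Both liver libraries lay above all brain libraries, and the cortex libraries differed from each other by more than the SCN and liver pairs did. The tissue means were 67.4% ± 12.4, 60.2% ± 5.47 and 82.6% ± 1.97 (SD over genotypes, n = 2). By estimated counts, which weight the longer transcript more, they were 31.4%, 24.1% and 49.9%. For *Ndufs8* the main transcript made up 66.7% to 69.9% of TPM in the brain libraries and 77.9% and 82.3% in liver.

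Lists of genes around the chain were counted with the same test. Of 46 assembly factors, 23 were in the tables by symbol, and in liver 9 were called higher and 2 lower with TMM factors (33.6% and 32.6% of all genes, here and in the lists below) but 0 higher and 9 lower relative to the members (18.7% and 51.2% of all genes). The largest called rises were in the succinate dehydrogenase factors *Sdhaf2* (1.46), *Sdhaf3* (1.16) and *Sdhaf1* (1.11), which relative to the members were not called and with limma on TPM turned to -0.13, -0.37 and -0.43. With limma on TPM 17 of the 23 were called lower in liver (64.4% of all genes) and 0 higher (12.9%), so the direction of this list rested on the scaling. In SCN against cortex 1 of the 23 was called lower (6.8% of all genes) and 0 higher (3.77%). The gene called was *Ttc19*, a factor of complex III (-0.80, SE 0.15, adjusted p = 0.019, edgeR).

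A list of 17 genes held electron transfer flavoproteins and other dehydrogenases that feed ubiquinone, *Ndufab1*, and the Coq and Pdss genes of ubiquinone synthesis. Of these, 13 were called higher in liver and 0 lower with TMM factors. The counts were 6 and 2 relative to the members (18.7% and 51.2% of all genes), and 4 and 6 with limma on TPM (12.9% and 64.4%). The 13 were *Etfa*, *Etfb*, *Etfdh*, *Dhodh*, *Ndufab1*, *Pdss2*, *Coq2*, *Coq3*, *Coq4*, *Coq5*, *Coq6*, *Coq8a* and *Coq9*. The electron transfer flavoproteins, which pass electrons from fatty acid oxidation to ubiquinone, led the list. *Etfa* stood at 49.9, 69.1, 68.0 and 70.6 TPM in wild-type and *duper* cortex and wild-type and *duper* SCN, and at 540.0 and 420.3 TPM in wild-type and *duper* liver. *Etfa*, *Etfb* and *Etfdh* were higher in liver relative to the members by 3.53, 2.85 and 2.89, and with limma on TPM by 2.88, 2.19 and 2.22, so their direction did not turn with the scaling.

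Of the 14 tricarboxylic acid cycle enzymes in the tables, 8 were called higher and 4 lower in liver with TMM factors. The counts were 5 and 6 relative to the members (18.7% and 51.2% of all genes), and 4 and 7 with limma on TPM (12.9% and 64.4%). *Suclg2*, a subunit of the GTP-forming succinyl-CoA ligase, was higher by 2.72 relative to the members, *Idh2*, the NADP-dependent isocitrate dehydrogenase of mitochondria, by 2.03 and fumarase *Fh* by 1.53. *Idh3a* of the NAD-dependent isocitrate dehydrogenase was lower (-2.75), as was citrate synthase *Cs* (-1.96). All 5 had the same sign with TMM factors and TPM. Of the 17 regulators of respiratory genes, 9 were called higher and 4 lower with TMM factors. The counts were 4 and 8 relative to the members (18.7% and 51.2% of all genes), and 1 and 11 with limma on TPM (12.9% and 64.4%). *Ppara*, a receptor that drives fatty acid oxidation genes, stood at 2.64 to 5.17 TPM in brain and at 97.3 and 49.2 TPM in wild-type and *duper* liver. *Tfam*, which packs and transcribes mitochondrial DNA, stood at 25.3 to 30.4 TPM in brain and 38.1 and 35.6 TPM in liver (relative to the members 1.08), and *Esrrb* was listed at 0 in both liver libraries. In *duper* against wild type edgeR called 0 genes of any of the 4 lists, and DESeq2 and limma on TPM also called 0. With edgeR, 1 gene of the list with *Etfa* (*Coq3*) and 1 of the regulators (*Ppara*) had an unadjusted p under 0.05, a share not computed for all genes.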

How the data were processed

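RNA-seq of 6 libraries (cortex, SCN and liver of *duper* and wild-type hamsters) was analysed from the tables that the authors deposited, with groups taken from the sample labels. Libraries were made from poly(A) RNA with a stranded kit. The authors assigned paired reads to hamster transcripts with Kallisto (its version is not given in the sources used here), summed transcripts per gene with tximport, and deposited unnormalized estimated counts with TPM, both per gene and per transcript. Of the 60 symbols, 60 were in the annotation of BCM_Maur_2.0, which was used for names only.

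Estimated counts were rounded and entered into edgeR 4.0.16 under R 4.3.3 (TMM, filterByExpr, quasi-likelihood F test, two-sided, with tissue and genotype as terms, Benjamini-Hochberg over 19780 genes). Its common dispersion came to 0.0351, with 5.02 prior degrees of freedom at the median gene. Standard errors were taken as the size of the log2 fold change over the root of F. Libraries of the other genotype stood in for replicates of a tissue, and tissues for replicates of a genotype. The p-values therefore rest on how unevenly the genotype difference ran across tissues. A difference between the hamster pools that all tissues share falls into the genotype term and is not part of that spread. The same hamsters gave all tissues of a genotype. Alternatives were library size, DESeq2 1.42.0, limma 3.58.1 on log2(TPM + 1), other filters on low counts, the likelihood ratio test, no fold threshold, leaving out libraries or tissues, and, within a tissue, a pseudocount of 0.1, TMM-scaled CPM and a mean of at least 5 TPM. The scaling to the members' geometric mean and the shares of *Ndufv3* transcripts were added after seeing the data. The 95% intervals (Clopper-Pearson, scipy 1.17.1) take estimated counts as whole reads, hold counting error alone, and belong to the ratio with no pseudocount added.

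Members, gene lists and tests were chosen with earlier results of these data known. Genes named are up to 6 called rises and falls per contrast, core and catalytic subunits, paralogous isoforms and the inhibitor, the most and least abundant gene of each complex, the 3 highest and lowest within-tissue ratios, and the 3 largest called changes of each list around the chain. Other names were chosen after their values were seen, and a value that the rule would name is not reported here. The test was checked on simulated counts of 19233 genes for the genotype contrast. Python 3.11.15, numpy 2.4.6, pandas 2.3.3 and matplotlib 3.10.9 were used for tables and plots.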

Additional observations from a re-analysis of the deposited data

How the results depend on the processing

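The result of 0 members called in *duper* against wild type held under all 10 alternatives to the TMM fit and all 11 of the scaling to the members. In liver against brain, library size in place of TMM gave 2 members higher and 18 lower, and limma on TPM 0 and 36, and 3 of the fits without 1 library (*duper* cortex, SCN or liver) gave 0 lower. The complex I median turned to -0.40 with library size and -0.72 with limma on TPM, and was 0.75 with DESeq2, 0.79 with at least 10 counts in every library and 0.83 to 0.88 in the fits without 1 library. Complex V turned to -0.19 and -0.53, and ranged from 1.01 to 1.21 in the fits without 1 library, the ends being those without *duper* and without wild-type liver. Complex II was at 0.49 with library size, 0.16 with limma on TPM, 1.64 with DESeq2 and 1.67 with at least 10 counts. The cause of these turns was not tested beyond the shift of the median of all genes (-1.24 with library size, -1.22 with TPM). In *duper* against wild type the medians were -0.10 for complex I with both library size and TPM, -0.061 and -0.051 for complex II and -0.065 for complex V with library size, and -0.061 to 0.00068 for complex II in the fits without 1 tissue.

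In SCN against cortex, library size and limma on TPM each called 1 member higher, as did limma on TPM centred on the members, and the 4 fits without a cortex or SCN library called 0 lower with either scaling. The medians were 0.18, 0.22 and 0.066 for complexes I, II and V with library size, which moved the median of all genes by 0.16, and the fits without 1 library gave 0.012 to 0.10 for complex II and -0.13 to -0.038 for complex V. The liver median of *duper* over wild type was 0.00049 with TMM-scaled counts. By estimated counts the shares in cortex, SCN and liver were 26.4%, 24.7% and 31.8% for *Atp5mc1*, 52.5%, 49.7% and 43.1% for *Atp5mc3*, 0.728%, 2.43% and 2.71% for *Ndufa4l2* in its pair, and 31.4%, 24.1% and 49.9% for the short *Ndufv3* transcript, with 25.1% for *Atp5mc2* in liver.

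Depth limits *Ndufa4l2* most, with 16 estimated counts in its shallowest library, and the merged liver reads hide the spread between hamsters. Summing members with unnamed copies was not run, because the annotation used here gives no product names. No paired analysis was possible because each genotype and tissue has 1 library and no replicate number, so that samples were matched through the tissue and genotype terms of the fits alone. A library left alone in its tissue was taken to vary like the others.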
